A study of Mus musculus with 2 samples.

Results

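The 10 genes *S100a4*, *S100a6*, *S100a8*, *S100a9*, *S100a10*, *S100a11*, *Anxa1*, *Anxa2*, *Anxa5* and *Lgals1* were taken by name from a table of liver RNA. The rule uses no measured value, but the names were picked with earlier results of these data known, so the shares set against all genes below are descriptions. All 10 were found among the 45777 gene symbols of the table and among the 15857 genes that reached 10 counts in either library. The RNA came from livers of C57BL/6 mice, given as C57BL/6 N in the paper, on a HFD (high-fat diet). They received one of 2 adeno-associated viruses by retro-orbital injection. The control group received AAV-GFP, and the other group received AAV-*Wee1-AS*, which delivers a long non-coding RNA transcribed antisense to *Wee1*, the gene of a kinase that restrains entry into mitosis. In both groups the diet began at 7 weeks of age and lasted 18 weeks, with the virus given at week 13, 5 weeks before the end. The vector's promoter was CMV, which is not restricted to hepatocytes, so other cells of the liver could have been transduced. The sex of the mice behind the libraries and any pooling of mice are not given in the sources used here. One library per group was analysed, whereas the series describes its design with 4 liver samples. No spread between mice could therefore be estimated, no test between the groups was possible, and no p-value is given. *Wee1-AS* itself was not analysed here, so the delivered transcript gives no check of the labels. Liver markers were as the label says, with albumin (*Alb*) at 37459 TPM with AAV-GFP and 53289 TPM with AAV-*Wee1-AS*.

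S100 proteins are small proteins with a pair of EF-hands, loops that bind calcium and expose a surface for partner proteins. Annexins bind phospholipid membranes in the presence of calcium, and several S100 proteins have an annexin as a partner. Galectin-1 (*Lgals1*) is a lectin that binds galactosides on glycoproteins inside and outside the cell. In liver most of these genes are known more from macrophages, neutrophils, stellate cells, bile duct cells and mesothelial cells than from resting hepatocytes, and several are known to rise in injured liver. The unit of the table for levels is TPM, the reads of a transcript per base of its length, scaled so that both libraries sum to the same total. Reads assigned to a gene are given as estimated counts, with totals of 55466182 for AAV-GFP and 48079335 for the other library. An interval in brackets is an exact 95% counting interval (Clopper-Pearson). It holds counting error alone, and it compares the 2 libraries and not the treatments. It takes the estimated counts as separate molecules, which PCR copies are not, so it can be too narrow.

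Of the 10 genes, 9 were lower with AAV-*Wee1-AS* than with AAV-GFP, against 50.1% of all genes, and 1, *Anxa1*, was higher, though not once trends with GC content and length were removed. Unless TPM is named, ratios are of scaled counts, AAV-*Wee1-AS* over AAV-GFP, and so differ somewhat from a ratio of TPM levels. This ratio was below 0.5 for 7 of them, against 8.43% of all 15857 genes. It was above 2 for 0 of them, against 22.5% of all genes. The whole counting interval was below 0.5 for 5 members (*S100a4*, *S100a11*, *Anxa2*, *Anxa5* and *Lgals1*), against 3.61% of all genes. It was below 1 for 8 members, against 37.4% of all genes, and above 1 for *Anxa1*, against 39.6%. The median log2 ratio of the 10 genes was -1.45, with a range from -2.35 to 0.51, while the median of all genes was -0.0020 and the middle 95% of all genes ran from -1.81 to 2.53. The member nearest below a ratio of 0.5 was *S100a9* at 0.408, and the nearest above it was *S100a10* at 0.563. Both *Lgals1* and *Anxa2* appear as lower in a heat map of this comparison in the study, as read from its picture, as do the markers *Chil3*, *Col3a1* and *Col1a2* given below, and their direction is therefore no separate evidence. In bulk liver RNA, fewer cells of a type and less RNA per cell cannot be told apart.

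**Figure D1:**
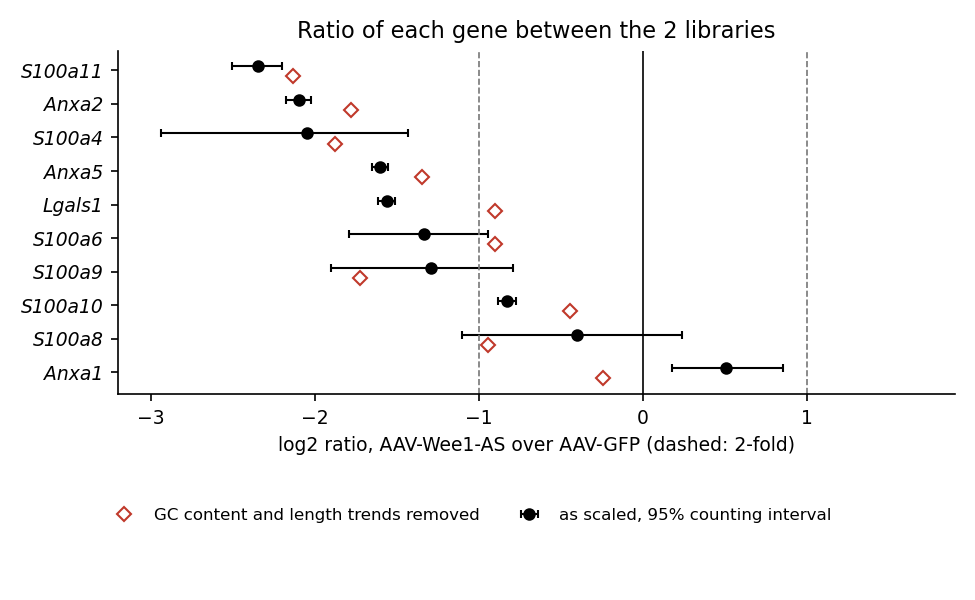
Log2 ratio, AAV-*Wee1-AS* over AAV-GFP, for each of the 10 genes (x axis), 1 gene per line, with black points and 95% counting intervals for the scaled counts and open diamonds once trends with GC content and length were taken out. Dashed lines mark 2-fold; 7 points lie left of the lower one and 0 lie right of the upper one, and *Anxa1* is the 1 gene whose point and diamond lie on different sides of 0.

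The 10 genes fell into 2 classes of abundance. *Lgals1*, *S100a10*, *Anxa5*, *Anxa2* and *S100a11* had between 156 and 525 TPM with AAV-GFP, while *S100a6*, *S100a9*, *S100a4*, *S100a8* and *Anxa1* had between 2.92 and 8.27 TPM. With AAV-*Wee1-AS* the same 5 abundant genes had between 29.2 and 231 TPM and the 5 scarce genes between 1.21 and 4.08 TPM. No scarce gene reached the level of an abundant one in either library. Added together, the 10 genes made up 1631 TPM with AAV-GFP and 590 TPM with AAV-*Wee1-AS*, a 2.77-fold lower sum, and the abundant genes held 98.3% and 97.7% of it. With AAV-GFP the order was *Lgals1*, *S100a10*, *Anxa5*, *Anxa2* and *S100a11*, and with AAV-*Wee1-AS* it was *S100a10*, *Lgals1*, *Anxa5*, *Anxa2* and *S100a11*. Each of these levels had a counting interval apart from those of its neighbours in the order. Among the 5 scarce genes every gene's interval overlapped that of the next gene in the order, in both libraries, so neighbours in that order were not resolved at this depth. Some genes further apart were. With AAV-GFP, *S100a6* and *S100a9* lay clear of *S100a8* and *Anxa1*, and *S100a4* of *Anxa1*. With AAV-*Wee1-AS*, *Anxa1* lay clear of *S100a9*, and *Anxa1*, *S100a6* and *S100a8* lay clear of *S100a4*. *Anxa1* stood last of the 10 with AAV-GFP and the sixth with AAV-*Wee1-AS*.

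**Figure D2:**
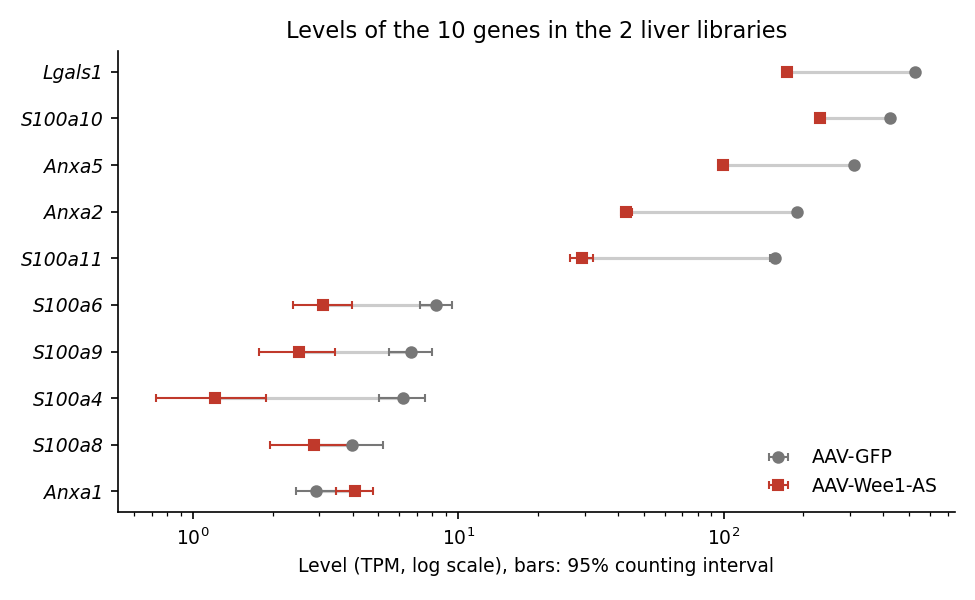
Level of each of the 10 genes in TPM (x axis, log scale) in the AAV-GFP library (grey circles) and the AAV-*Wee1-AS* library (red squares), with 95% counting intervals as bars. The 5 abundant genes lie between 29.2 and 525 TPM and the 5 scarce genes between 1.21 and 8.27 TPM, and the red square lies right of the grey circle for *Anxa1* alone.

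Promoter sequence was looked at for the genes that RefSeq (GRCm38.p6) gives a window for, which were 8 of the 10 (not *S100a10* and *Lgals1*). Each window ran from 250 bases before the annotated start to 50 bases after it. The motifs searched on both strands were the TATA box (TATAAA), the AP-1 site (TGANTCA), the SP1 GC box (GGGCGG), the CRE (TGACGTCA) and the NF-kB consensus. The matches in the windows of the members did not overlap each other. AP-1 letters were in 2 member windows, those of *S100a11* and *Anxa2*, and in 7.81% of all 32851 windows. SP1 letters were in 3 member windows (*S100a9*, *S100a11* and *Anxa2*) and in 35.7% of all windows, and TATA letters in 5 (*S100a4*, *S100a8*, *S100a9*, *Anxa1* and *Anxa2*) and 13.6%. CRE and NF-kB letters were in 0 member windows and in 1.79% and 4.51% of all windows. The 250 bases before the start are printed for *S100a11* and *Anxa2*, the members with the lowest ratios, for *Anxa5*, a lower member with no match, and for *Anxa1*, the member that was higher. They run 5′ to 3′ on the strand of the gene, and capitals mark the motif matches. The windows are chr3:93520246-93520495 on the plus strand for *S100a11*, chr9:69453433-69453682 on the plus strand for *Anxa2*, chr3:36475888-36476137 on the minus strand for *Anxa5* and chr19:20390672-20390921 on the minus strand for *Anxa1*.
S100a11: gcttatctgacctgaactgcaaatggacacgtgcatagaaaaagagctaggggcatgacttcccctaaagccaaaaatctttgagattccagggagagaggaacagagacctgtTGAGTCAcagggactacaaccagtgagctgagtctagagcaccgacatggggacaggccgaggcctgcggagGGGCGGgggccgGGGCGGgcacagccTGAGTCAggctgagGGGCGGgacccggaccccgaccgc
Anxa2: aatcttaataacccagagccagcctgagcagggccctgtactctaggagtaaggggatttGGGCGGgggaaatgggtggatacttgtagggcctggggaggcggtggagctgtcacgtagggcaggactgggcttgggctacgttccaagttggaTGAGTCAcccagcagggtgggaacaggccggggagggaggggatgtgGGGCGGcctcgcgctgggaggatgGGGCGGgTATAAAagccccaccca
Anxa5: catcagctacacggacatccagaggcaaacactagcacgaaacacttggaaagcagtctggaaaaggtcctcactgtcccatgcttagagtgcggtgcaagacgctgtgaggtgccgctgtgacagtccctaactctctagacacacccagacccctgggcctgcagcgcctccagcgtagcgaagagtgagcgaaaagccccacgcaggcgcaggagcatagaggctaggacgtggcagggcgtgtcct
Anxa1: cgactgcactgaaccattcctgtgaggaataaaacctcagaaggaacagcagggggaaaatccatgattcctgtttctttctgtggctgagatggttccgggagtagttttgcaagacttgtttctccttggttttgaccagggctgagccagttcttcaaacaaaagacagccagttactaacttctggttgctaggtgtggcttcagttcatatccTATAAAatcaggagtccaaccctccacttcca
The AP-1 letters of *S100a11* begin 136 and 38 bases before the start, and those of *Anxa2* 95 bases before it. SP1 letters begin 64, 52 and 24 bases before the start of *S100a11* and 190, 48 and 24 bases before that of *Anxa2*. The TATA letters begin 17 bases before the start of *Anxa2* and 32 bases before that of *Anxa1*, and in *S100a9*, not printed, they begin at the annotated start itself. A match describes letters in a window, and it is neither a shown site nor a cause of the values that follow.

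*S100a11* (chromosome 3, 93520235 to 93526288, mm10), whose protein binds annexin A1 and is known from membrane repair and cell growth, had the lowest ratio of the 10. Its level was 156 TPM (2591 counts) with AAV-GFP and 29.2 TPM (419 counts) with AAV-*Wee1-AS*. In scaled counts it was 5.08-fold lower, a log2 ratio of -2.35 (95% counting interval -2.50 to -2.20). That log2 ratio lay between -2.48 and -2.01 under all 13 alternative ways of processing. Nearly all of the counts were on the curated transcript, 2590 and 396, with 1 and 23 on a predicted transcript with an earlier start.

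*Anxa2* (chromosome 9, 69453683 to 69491792) encodes annexin A2, a membrane-binding protein that at the cell surface holds plasminogen and its activator tissue plasminogen activator. Its level was 189 TPM (8598 counts) with AAV-GFP and 43.0 TPM (1654 counts) with AAV-*Wee1-AS*. In scaled counts it was 4.28-fold lower, with a log2 ratio of -2.10 (-2.18 to -2.02). *S100a10* (chromosome 3, 93554940 to 93564645) encodes the S100 protein that joins annexin A2 in a tetramer and, unlike other S100 proteins, is held in an active form without calcium. Its level was 423 TPM (9077 counts) with AAV-GFP and 231 TPM (4213 counts) with AAV-*Wee1-AS*, with a log2 ratio of -0.83 (-0.88 to -0.78), short of 2-fold. Both partners were lower with AAV-*Wee1-AS*, but by unequal amounts. The ratio of *S100a10* to *Anxa2* in TPM was 2.24 with AAV-GFP and 5.38 with AAV-*Wee1-AS*, a log2 change in counts of 1.27 (1.18 to 1.36). On curated transcripts alone the 2 ratios were 2.29 and 5.36.

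*Anxa5* (chromosome 3, 36448923 to 36475887) encodes annexin A5, which binds phosphatidylserine and is used as a stain for dying cells. It had the most counts of the 10, 17614 (310 TPM) with AAV-GFP and 4782 (99.4 TPM) with AAV-*Wee1-AS*. In scaled counts it was 3.04-fold lower, with a log2 ratio of -1.60 (-1.65 to -1.56). *Anxa1* (chromosome 19, 20373434 to 20390671) encodes annexin A1, a protein induced by glucocorticoids whose released form acts on formyl peptide receptors to limit leukocyte entry. Its level was 2.92 TPM (135 counts) with AAV-GFP and 4.08 TPM (159 counts) with AAV-*Wee1-AS*, a log2 ratio of 0.51 (0.17 to 0.86) that became -0.25 once the trends with GC content and length were removed. *Anxa1* was thus the only member not lower in the scaled counts, and it was the least abundant one with AAV-GFP.

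*Lgals1* (chromosome 15, 78926725 to 78930465), the gene of galectin-1, which on T cells binds the phosphatase CD45 among other glycoproteins, was the most abundant member with AAV-GFP. Its level was 525 TPM (13840 counts) with AAV-GFP and 173 TPM (3868 counts) with AAV-*Wee1-AS*. In scaled counts it was 2.95-fold lower, with a log2 ratio of -1.56 (-1.61 to -1.51). That log2 ratio became -0.90 and so short of 2-fold with the trends removed. *Lgals1* had the highest GC content of the members, 54.9%. The table also lists *Gm30368* over the locus of *Lgals1*, with 12 and 15 counts, and microRNA genes within *Anxa2* and *Anxa5* with at most 3 counts. Whether the counting used the strand is not given in the sources used here.

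*S100a4* (chromosome 3, 90603770 to 90606045) encodes a protein of motile cells and is often used to mark fibroblasts, although macrophages express it too. Its level was 6.19 TPM (102 counts) with AAV-GFP and 1.21 TPM (19 counts) with AAV-*Wee1-AS*, a log2 ratio of -2.05 (-2.94 to -1.43). The counts of the 2 libraries were on different transcripts, 102 on the curated transcript with AAV-GFP and 19 on a predicted transcript with a later first exon (start 90604661) with AAV-*Wee1-AS*. On the curated transcript alone *S100a4* had 102 counts against 0, which makes it at least 27.4-fold lower when the floor is set at 3 counts in the library. Which transcript the reads came from is an estimate of the counting program, so for *S100a4* the gene total is the safer value. *S100a6* (chromosome 3, 90612894 to 90614414), the gene of calcyclin, a partner of several annexins, had 8.27 TPM (196 counts) with AAV-GFP and 3.11 TPM (63 counts) with AAV-*Wee1-AS*. Its log2 ratio was -1.33 (-1.79 to -0.94), and it became -0.90 with the trends removed.

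*S100a8* (chromosome 3, 90669071 to 90670034) and *S100a9* (chromosome 3, 90692630 to 90695721) encode the 2 chains of calprotectin, which neutrophils and monocytes store in large amounts and release as a ligand of TLR4. The level of *S100a8* was 3.97 TPM (52 counts) with AAV-GFP and 2.86 TPM (32 counts) with AAV-*Wee1-AS*. Its log2 ratio of -0.40 had an interval from -1.11 to 0.24, so a difference was not detectable at this depth. The level of *S100a9* was 6.64 TPM (116 counts) with AAV-GFP and 2.51 TPM (38 counts) with AAV-*Wee1-AS*, a log2 ratio of -1.29 (-1.90 to -0.79). Thus the chains differed in the size of their ratio, and *S100a9* to *S100a8* in TPM was 1.67 with AAV-GFP and 0.879 with AAV-*Wee1-AS*, a log2 change in counts of -0.91 (-1.74 to -0.08).

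Across all genes, the log2 ratio between these 2 libraries declined with the GC content of the transcript, with a Spearman coefficient of -0.67 over 14995 genes, which share both libraries and are not independent. The members had GC contents between 43.6% (*Anxa1*) and 54.9% (*Lgals1*), with a median of 50.2% against 49.8% for all genes. After removal of the trends with GC content and length, all 10 members including *Anxa1* were lower, from -2.13 (*S100a11*) to -0.25 (*Anxa1*), with a median of -1.14, while 49.9% of all genes were lower. Below 0.5 there were 5 of them (*S100a4*, *S100a9*, *S100a11*, *Anxa2* and *Anxa5*), against 8.51% of the 14995 genes. *S100a6* and *Lgals1* then stood at -0.90 each. *S100a8* moved the other way, from -0.40 to -0.94, and *S100a9* from -1.29 to -1.72, both being transcripts of low GC content (44.2% and 45.1%). The part of GC content in the values of the members was not tested.

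**Figure D3:**
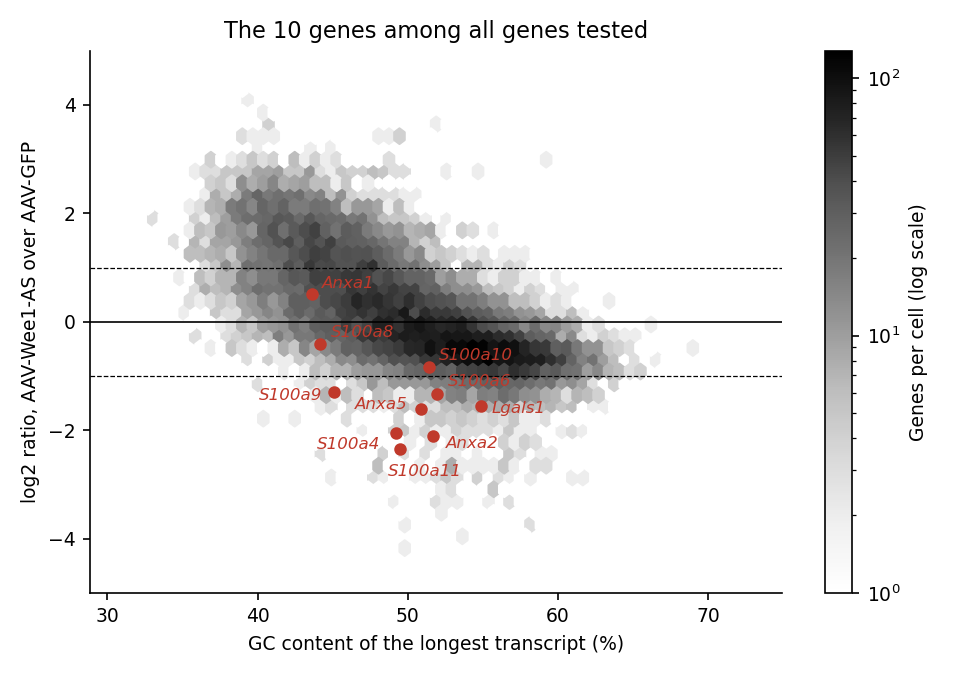
Log2 ratio, AAV-*Wee1-AS* over AAV-GFP (y axis) against the GC content of the longest transcript in percent (x axis) for 14995 genes as grey cells, darker for more genes on a log scale, with the 10 members as red points. The axis is limited to log2 ratios from -5 to 5, which leaves out 8 genes; all members but *Anxa1* lie below 0, and *S100a11* lies lowest.

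The 6 S100 members lie on chromosome 3, where 14 S100 genes of the table stand in a row with a gap before *S100a11* and *S100a10*. The first 12 of them span 184688 bases. Of the 14, 9 passed the count filter. All 9 were lower with AAV-*Wee1-AS* in the scaled counts, against 50.1% of all genes (*S100a13*, no member, stood at 0.25 with the trends removed). Below 0.5 there were 4 of them, all members, against 8.43% of all genes. One of these, *S100a6*, was no longer below 0.5 with the trends removed (-0.90). *S100a3*, *S100a2*, *S100a5* and *S100a14* were at 0 in both libraries, and *S100a7a* had 0 and 4 counts. Genes at 0 thus lie between expressed ones: *S100a5* stands between *S100a4* and *S100a6*, and *S100a3* and *S100a2* stand between *S100a16* and *S100a4*. Levels along the row differed widely. With AAV-GFP, *S100a1* at the start of the row had 373 TPM and *S100a10* at its end 423 TPM, *S100a11* next to it had 156 TPM, and the 4 members of the first block (*S100a4*, *S100a6*, *S100a8* and *S100a9*) had at most 8.27 TPM.

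**Figure D4:**
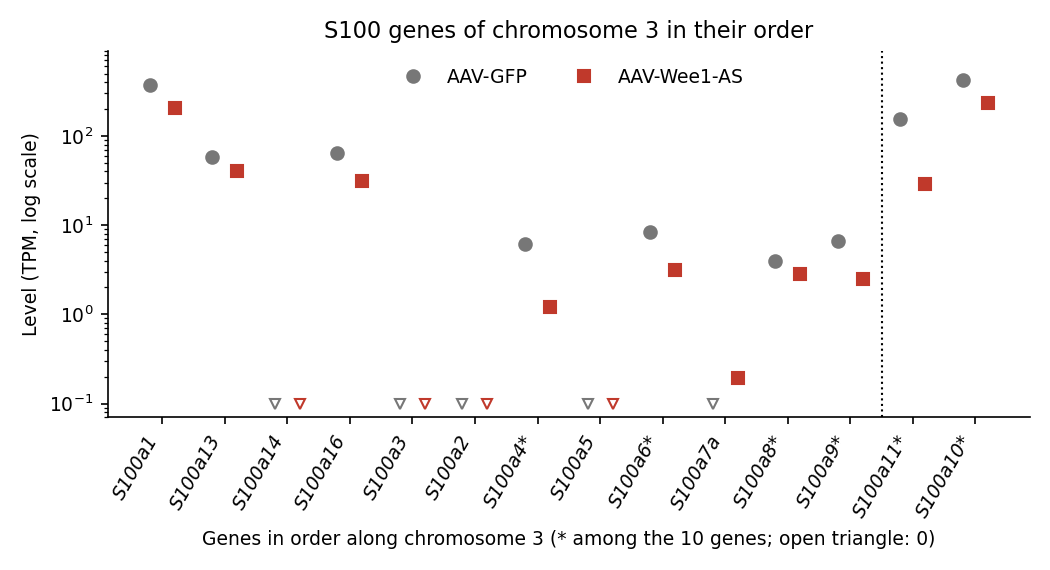
Level in TPM (y axis, log scale) of the 14 S100 genes of chromosome 3 in their order (x axis; a star marks a member and the dotted line a gap between blocks), in the AAV-GFP library (grey circles) and the AAV-*Wee1-AS* library (red squares), with open triangles for a level of 0. All 9 genes past the count filter have the red square below the grey circle in these levels, from which no trend was removed, and 4 genes are at 0 in both libraries.

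Other genes of the same families gave a measure of how far the values of the members were shared. Of 12 other S100 genes listed, 11 were in the table, 6 were at 0 in both libraries and 4 passed the count filter. All 4 were lower, against 50.1% of all genes, except that *S100a13* was not with the trends removed. Their median was -0.91 (-0.25 with the trends removed and -1.24 on curated transcripts alone). Against 8.43% of all genes, 1 was below 0.5. This was *S100g*, the gene of a calcium-binding protein of the gut, with 37 counts against 6 (-2.05, -3.88 to -1.09). *S100a1*, known as a calcium sensor of muscle, had 7553 against 3525 counts (-0.82, -0.88 to -0.76), and *S100a16* had 2390 against 992 (-0.99, -1.10 to -0.88). *S100a13* had 1412 against 886 counts (-0.39, -0.52 to -0.27), or 1059 against 295 (-1.52) on curated transcripts alone, and its locus overlaps that of *S100a1*. With the trends removed, *S100a1* stood at -0.20 and *S100a16* at -0.30, whereas *S100a4* and *S100a11* stood at -1.87 and -2.13.

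Among the other annexins no gene was past 2-fold in the scaled counts. Of 9 other annexins, 8 passed the filter, 6 of them lower, against 50.1% of all genes, and 2 higher. Past 2-fold in either direction there were 0, against 31.0% of all genes. Their median was -0.17 (0.03 with the length trend alone removed). With both trends removed *Anxa8*, *Anxa9* and *Anxa11* stood above 0 and the other 5 below, while 49.9% of all genes were lower. Past 2-fold there were again 0, against 15.9% of all genes with both trends removed. The abundant ones were *Anxa6* (141 TPM with AAV-GFP and 91.0 TPM with AAV-*Wee1-AS*, log2 ratio -0.60), *Anxa7* (91.5 and 71.4 TPM, -0.31), *Anxa4* (41.3 and 40.4 TPM, 0.0049) and *Anxa11* (33.5 and 24.9 TPM, -0.39). *Anxa6*, the lowest of the 8, lay well above *Anxa5* at -1.60 and *Anxa2* at -2.10. The scarce ones had log2 ratios of -0.15 (*Anxa3*), -0.04 (*Anxa8*), -0.18 (*Anxa9*) and 0.14 (*Anxa13*). No annexin besides the members was below 0.5 under any alternative. *Anxa10* was at 0 in both libraries.

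Galectins went both ways. Of 9 other galectin genes listed, 8 were in the table and 6 passed the filter. Of these, 2 were below 0.5, against 8.43% of all genes, and 3 above 2, against 22.5%. Their median was 0.34, which became -0.21 on curated transcripts alone. *Lgals3*, the galectin of macrophages, was the one that stood nearest to *Lgals1*, with 1486 against 346 counts (-1.82, -2.00 to -1.66, or -1.20 with the trends removed). *Lgals2* had 14 against 0 counts, at least 3.85-fold lower with the floor of 3 counts. *Lgals9*, the most abundant galectin of these livers at 1117 TPM with AAV-GFP and 727 TPM with AAV-*Wee1-AS*, had a log2 ratio of -0.58. The higher ones were *Lgals4* (126 against 318 counts, 1.60), *Lgals8* (2644 against 5242, 1.26) and the galectin-related gene *Lgalsl* (219 against 535, 1.56). With the trends removed *Lgals4* alone of these stayed above 2, and *Lgalsl* stood at 0.37. On curated transcripts alone *Lgals4* had 87 against 77 counts, so its value rested on predicted transcripts.

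**Figure D5:**
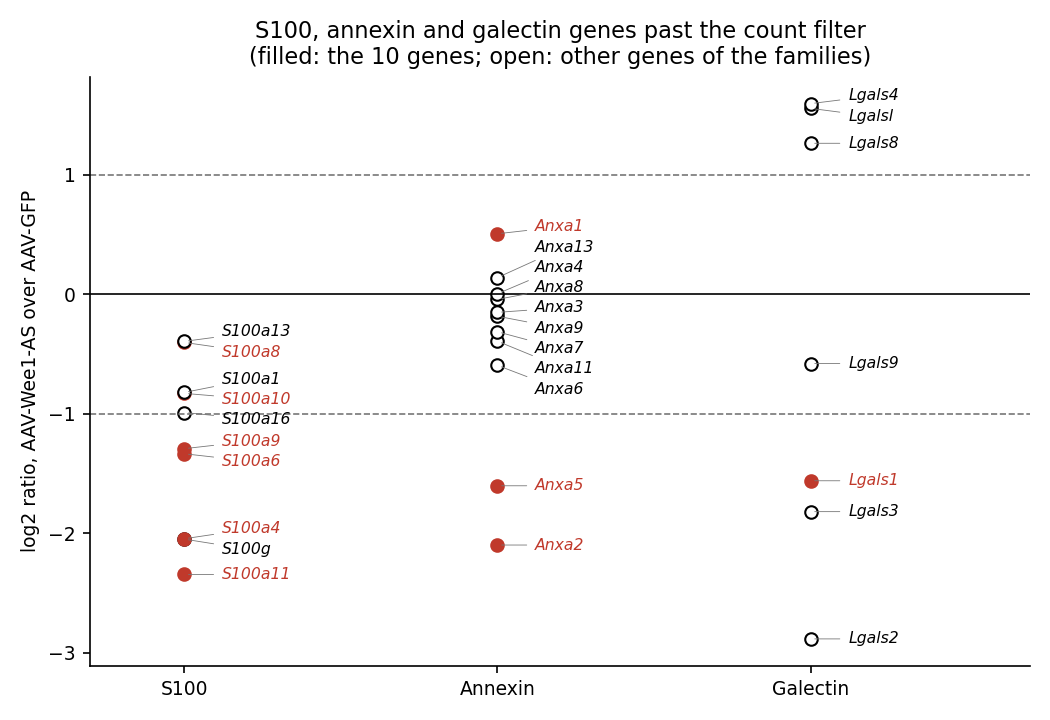
Log2 ratio, AAV-*Wee1-AS* over AAV-GFP (y axis) of every S100, annexin and galectin gene past the count filter (x axis, by family), with members as filled red points and other genes as open circles; dashed lines mark 2-fold. Among annexins *Anxa5* and *Anxa2* lie below all 8 other annexins, while among S100 genes and galectins members and other genes mix.

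Receptors and binding partners of the 10 proteins did not share one direction. Of 14 such genes, 12 passed the filter. Below 0.5 there were 3, against 8.43% of all genes, and above 2 there were 4, against 22.5%. The median of the 12 was 0.13 (-0.36 with the trends removed). Activators of plasminogen were lower, as was the receptor of urokinase. *Plat* (tissue plasminogen activator) had 107 against 34 counts (-1.33, or -2.03 with the trends removed). *Plau* (urokinase) had 199 against 79 (-1.04, or -0.98 and so short of 2-fold on curated transcripts alone). *Plaur* (urokinase receptor) had 181 against 21 (-2.73), or 129 against 0 on curated transcripts alone. Plasminogen itself (*Plg*), made by hepatocytes, had 129162 against 111293 counts (0.06). The receptors of annexin A1 had 145 against 137 counts (*Fpr1*, 0.19, or -0.24 with the trends removed) and 29 against 20 (*Fpr2*, -0.24, or -0.92 with the trends removed), neither resolved from no difference. The receptor of calprotectin, *Tlr4*, had 34 against 86 counts (1.56, or 0.16 with the trends removed). Its coreceptor *Ly96* had 40 against 92 (1.43, or 0.43 with the trends removed). Glycoproteins that galectin-1 binds included *Itgb1* (integrin beta 1) at 2655 against 6982 counts (1.67, or 0.88 with the trends removed). Others were *Ptprc* (CD45) at 154 against 283 (1.14, or -0.47 with the trends removed) and *Lgals3bp* at 12779 against 5864 (-0.85, or -0.21 with the trends removed). *Ahnak*, which binds the annexin A2 complex, had 522 against 702 counts (0.70), but its level per length was 4.54 TPM with AAV-GFP and 3.23 TPM with AAV-*Wee1-AS*, and its log2 ratio was -0.56 with the trends removed. With the trends removed 0 of the 12 were above 2, against 7.42% of all genes, while 3 were below 0.5, against 8.51%. Thus the 4 genes above 2 (*Tlr4*, *Ly96*, *Itgb1* and *Ptprc*) were so only before that step. All 154 counts of *Ptprc* with AAV-GFP and none of its 283 with AAV-*Wee1-AS* were on curated transcripts.

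Markers of cell types known to express the 10 genes are given beside them, and their part in the values of the members was not tested. Of all genes, 8.43% were below 0.5 and 22.5% above 2, with 31.0% past 2-fold in either direction. The counts of each list stand against the share for their own direction. The genes named for a list are those with the highest mean TPM over both libraries, which need not be the highest in each. For neutrophils and monocytes, the sources of calprotectin, 13 neutrophil markers summed to 7.35 TPM with AAV-GFP and 6.54 TPM with AAV-*Wee1-AS*, with 3 below 0.5 and 1 above 2 of the 9 past the filter. Of the 9 past the filter 5 were lower, against 50.1% of all genes, and 4 higher. The neutrophil markers *Ly6g* and *Ctsg* were at 0 in both libraries, and others of the list were detected at low counts. Those of highest mean level were *Retnlg* (49 against 14 counts), *Prtn3* (12 against 64, and so low with AAV-GFP) and *Csf3r* (162 against 97). The 6 monocyte markers summed to 26.2 and 17.99 TPM, 2 of them below 0.5, with *Plac8* (543 against 324 counts), *Ly6c2* (114 against 46) and *Itgam* (97 against 99) of highest mean level. Of the 6 monocyte markers 4 were lower, against 50.1% of all genes, and 2 higher. With AAV-GFP alone *Chil3* (-1.56), named after its value was seen, lay above *Itgam*. *Ccr2*, named likewise, was higher, with 33 against 45 counts (0.69, or -0.93 with the trends removed). Of the markers of stellate cells and fibroblasts, in which *S100a4*, *S100a6* and *Lgals1* are known, 8 were lower, against 50.1% of all genes, and 3 higher. Of 11 stellate cell and fibroblast markers 6 were below 0.5 and 1 above 2, and they summed to 218 and 144 TPM. Among the highest of them *Col3a1* stood at -2.01, *Col1a2* at -2.01 and *Dcn* at 0.35, or -1.17 with the trends removed. Also higher in the scaled counts were *Lrat* (1.48, or 0.06 with the trends removed) and *Reln* (0.26, or -0.35 with the trends removed). Of 6 mesothelial markers 4 were below 0.5, with sums of 4.23 and 1.73 TPM, led by *Upk3b* (-1.63), *Msln* (-1.30, or -0.67 with the trends removed) and *Gpm6a* (0.36, or -0.92 with the trends removed).

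Markers of other cells of the liver were counted in the same way. The 8 macrophage markers summed to 701 and 423 TPM with 1 below 0.5, the complement genes *C1qa*, *C1qb* and *C1qc* being highest at -0.896, -0.998 and -1.01 (-0.098, -0.26 and -0.27 with the trends removed). The 6 markers of resident Kupffer cells summed to 344 and 275 TPM with 0 below 0.5 and 3 above 2, with *Cd5l* at -0.74, *Clec4f* at -0.14 (0.22 with the trends removed) and *Vsig4* at 1.53 (0.89 with the trends removed). Cholangiocyte markers, of which 5 of 6 passed the filter, summed to 44.1 and 37.9 TPM, and the 8 endothelial markers to 169 and 133 TPM, with 0 past 2-fold in either list; *Spp1* (-0.20, or -1.02 with the trends removed) and *Clec4g* (-0.48) were their most abundant genes. The 12 lymphocyte and dendritic cell markers summed to 11.6 and 7.82 TPM. Of them 7 were lower, against 50.1% of all genes, and 5 higher, with 3 below 0.5 and 2 above 2. *Itgax* had 421 against 73 counts (-2.22), the highest level of the list with AAV-GFP but not with AAV-*Wee1-AS*. *Cd79b* had 69 against 61 counts (0.10, or 0.66 with the trends removed) and *Cd79a* 67 against 28 (-0.94, or -0.32 with the trends removed). Adipocyte markers summed to 16.2 and 16.98 TPM, nearly all of it *Cfd*, with *Plin1* and *Lep* at 0 in both libraries. The 10 hepatocyte markers had 0 below 0.5 and 2 above 2, and *Alb*, *Apoa1* and *Ttr*, the highest of them, had log2 ratios of 0.55, -0.25 and -0.61, that of *Apoa1* becoming 0.48 with the trends removed. With the trends removed, 7 stellate cell and fibroblast markers, 3 mesothelial, 3 lymphocyte and dendritic cell, 2 monocyte, 1 neutrophil, 1 cholangiocyte and 0 macrophage, Kupffer cell, endothelial or hepatocyte markers were below 0.5. Above 2 there were then 2 neutrophil markers, 2 lymphocyte and dendritic cell markers, 1 Kupffer cell marker and 0 of the other lists. The shares of all genes with the trends removed were 8.51% below 0.5 and 7.42% above 2.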

How the data were processed

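Poly-A RNA of the 2 liver libraries was sequenced from a stranded kit. The submitters' processing notes name Trimmomatic 0.38, HISAT2 2.1.0, SAMtools 1.9, StringTie 2.1.3b and the mouse build mm10, without their roles. The authors deposited, for 129299 RefSeq transcripts, an estimated count that is not normalized, and FPKM and TPM values scaled by the authors to length and library. Estimated counts are shares assigned to overlapping transcripts. They were summed here per gene symbol, without rounding since the deposited values are whole. Libraries were scaled by TMM factors (edgeR 4.0.16, R 4.3.3) (1.03 for the control, 0.975 for AAV-*Wee1-AS*) from the genes that reached 10 counts in either library. Log2 ratios used a prior count of 2, and fold limits were 2 and 0.5. Exact 95% intervals came from scipy 1.17.1. GC content and length came from the longest GENCODE transcript, matched for 94.6% of genes, and their trends were removed by lowess fits (span 0.3, 5 cycles; statsmodels 0.14.6). The members and lists were chosen with earlier results of these data known. Genes named are the members, relatives and partners past the filter, and the genes of highest mean TPM of each marker list. These are 3 per list, but only the first for cholangiocytes, endothelial cells and adipocytes. Genes at 0 in both libraries, *S100a7a*, *Chil3*, *Ccr2*, *Lrat* and *Reln* are named outside this rule, with their values known. The ratios, intervals and trend removal were tested on simulated data. Tried instead were DESeq2 1.42.0 size factors, library totals, upper quartile factors, totals without the 20 most abundant genes, a prior count of 0.5, 3 other count filters, FPKM and TPM with a pseudocount of 1, curated transcripts alone, and removal of the trends. Protein sequences were not used here.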

Additional observations from a re-analysis of the deposited data

How the results depend on the processing

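With 1 library per group, depth sets the counting intervals alone and says nothing about mice. No paired analysis was possible because each group has 1 library, and leaving out a library leaves no comparison. Over 13 alternatives the members below 0.5 numbered 5 to 7 and their median log2 ratio lay between -1.58 and -1.13, while 1.94% (FPKM) to 11.4% (length trend removed) of all genes were below 0.5. *S100a4*, *S100a11*, *Anxa2* and *Anxa5* were below 0.5 in all 14 settings. *S100a6* and *Lgals1* were so in 13 (not with GC content and length trends removed) and *S100a9* in 12 (-0.96 with FPKM, -0.95 with the length trend removed). *Anxa1* changed sign, to -0.25, with both trends removed. Upper quartile factors moved the median of all genes by -0.13. Of 130 recomputed ratios of members, 104 stayed within their counting interval and 26 did not, 1 of them the sign change of *Anxa1*.

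The other S100 genes below 0.5 numbered 2 with library totals, upper quartile factors, totals without the 20 most abundant genes, no filter, TPM or curated transcripts, and 0 with a minimum of 50 counts. Those above 2 numbered 1 with no filter, and the median was -0.25 with both trends removed. Other annexins above 2 numbered 1 on curated transcripts (*Anxa9*, 0 against 35 counts), and their median was 0.03 with the length trend removed. Other galectins below 0.5 numbered 1 with a minimum of 10 counts in both libraries, a minimum of 50 counts, FPKM or TPM, and those above 2 numbered 1 with FPKM or with both trends removed. Their median lay between -0.21 and 1.26. Receptors and partners below 0.5 numbered 1 with FPKM or TPM, and those above 2 numbered 1 with FPKM, 2 with TPM and 0 with both trends removed. Of all genes, those below 0.5 numbered 2126 with no filter, 874 with a minimum of 10 counts in both libraries, 803 with a minimum of 50 counts, 307 with FPKM and 438 with TPM. Those above 2 numbered 1029 with FPKM, 1608 with TPM and 1112 with both trends removed. The filters changed which genes were counted and the pseudocount of 1 draws low FPKM and TPM values toward a ratio of 1; for the other settings the cause was not tested.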
